A study of Mus musculus with 3 samples.

Results

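The AP-1 and Egr immediate early genes were described in tumors that carried a GATA-3 retrovirus, set against tumors that carried the empty vector. There were 10, Fos, Fosb, Fosl1, Fosl2, Jun, Junb, Jund, Egr1, Egr2 and Atf3, chosen by name as all probe rows of the deposited table whose platform annotation gives 1 of these symbols. They took 12 of the 38976 probe rows and 10 of the 15056 named genes. Fosl2 had 3 probes and each of the other 9 genes had 1.

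AP-1 is a family of paired transcription factors. A Fos-type protein (Fos, Fosb, Fosl1, Fosl2) joins a Jun-type protein (Jun, Junb, Jund) through a leucine zipper, and the pair binds the DNA site known as the TPA response element. Jun proteins can also pair among themselves, and Atf3, a stress-induced member of the related ATF/CREB family, can pair with Jun proteins. Egr1 and Egr2 are zinc finger factors of GC-rich sites. Most of these genes are known as immediate early genes, whose transcription starts within minutes of a growth factor or stress signal without new protein synthesis, in large part through serum response factor and CREB. Jund is the exception in being expressed steadily in many unstimulated cells.

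Every ratio came from 1 of 3 two-channel arrays. On each, per the labels, total RNA of a GATA-3 infected tumor was in the Cy5 channel and RNA of a control infected tumor in the Cy3 channel. Both kinds of tumor were grown from cultured, non-fluorescent cells of MMTV-PyMT carcinomas, in which the mouse mammary tumor virus promoter drives the polyoma middle T oncogene. The GATA-3 cells received full length GATA-3 in the PMIG retroviral vector, which also makes GFP from an IRES, and the control cells received the vector alone. Both were grown for 6 weeks in cleared fat pads of wild-type hosts, so host stroma, vessels and immune cells could be in either RNA. The sources used here do not give the mouse strain, sex and age, the number of animals or pools, or whether the arrays shared a control RNA, so p-values measure the spread between these 3 arrays, which may be technical.

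Arrays are numbered in accession order, as names only, and array 1 has a different title prefix from arrays 2 and 3. Values are read as log2 ratios, with each array's median set to 0. Neither the log base nor the direction of the ratio is stated. A positive value is read as higher in the GATA-3 tumor, from the channel labels and the positive Gata3 probe (0.74, 0.86 and 0.79 on arrays 1, 2 and 3). Every direction below would turn if that reading were wrong. A mean ratio as high as that of Gata3 was found in 11.9% of all rows. No dye swap was run, so an effect of a probe's dye and a difference between the tumors cannot be told apart. The ratios give no level per gene, so neither the abundance of a member nor the presence of the tissue's own markers can be read from them, and in bulk tumor RNA fewer cells of a type and less RNA per cell cannot be told apart. The SD of the deposited values was 0.562, 0.722 and 0.550 on arrays 1, 2 and 3, and Pearson's r across probe rows, which are not independent, was 0.77, 0.78 and 0.94 for arrays 1 and 2, 1 and 3, and 2 and 3.

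The members split into opposite directions. Fos, Fosb, Jund and Egr1 rose, with mean log2 ratios between 0.95 and 1.18. Junb, Jun, Atf3, Fosl1 and Fosl2 fell, with means between -1.20 and -0.32. Egr2 did not pass the test. Here rose and fell, and higher and lower, mean a positive or a negative mean ratio with an adjusted p under 0.05 in limma, adjusted over all 31059 rows. In all 9 of 10 members passed, 4 higher and 5 lower. On the same arrays 55.8% of all rows passed, 31.7% higher and 24.1% lower, and among named genes 57.9% passed, 32.1% higher and 25.7% lower. A pass was therefore common on these arrays, and the members are described below by the size and the spread of their ratios. The median over the 10 was -0.16, against 0.02 over all rows, and both the Fos family and the Jun family held members of each direction.

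**Figure D1:**
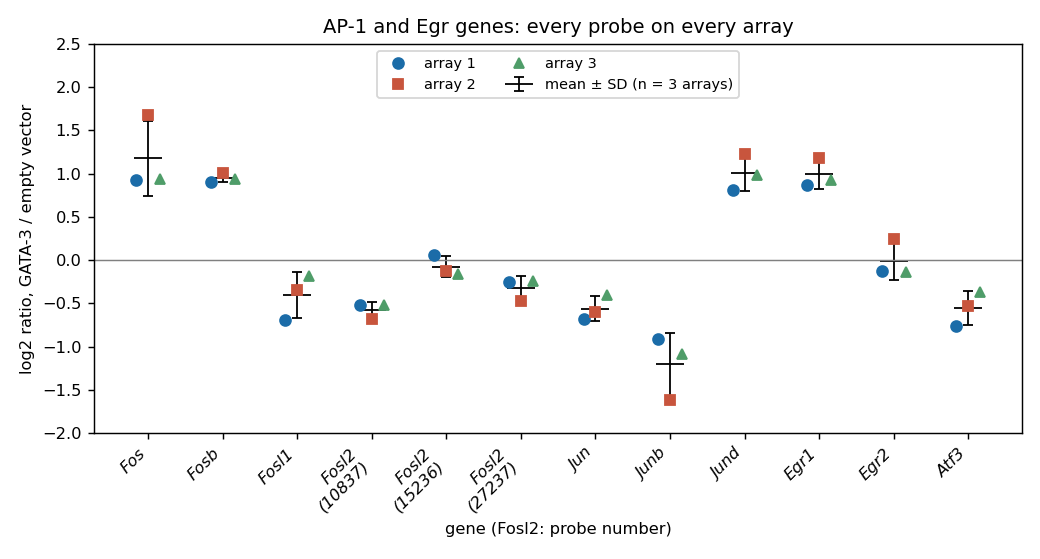
Log2 ratio of the GATA-3 tumor to the empty-vector tumor (vertical axis) for each of the 12 member probes (horizontal axis), with 1 symbol per array and a bar for the mean ± SD over 3 arrays. Fos, Fosb, Jund and Egr1 lie above 0.8 on every array, Junb lies lowest at -1.61 to -0.91, and the Egr2 probe straddles 0.

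Fos, the founding member of the family and the usual partner of Jun after stimulation, had log2 ratios of 0.93, 1.68 and 0.93 on arrays 1, 2 and 3. All 3 were positive, and array 2 stood well above the other two. The mean was 1.18 ± 0.43 (SD, n = 3), or 2.27-fold, with a 95% interval of 0.73 to 1.63 (limma, adjusted p = 0.00508). A ratio as high was found in 1.69% of all rows. Without array 2 the mean was 0.93, and it kept the call.

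Fosb, another quickly induced Fos protein, gave the tightest values of the group. Its log2 ratios were 0.91, 1.01 and 0.94 on arrays 1, 2 and 3, a spread of 0.0975 between the lowest and the highest. The mean was 0.95 ± 0.05 (SD, n = 3), or 1.93-fold (limma, adjusted p = 0.00307), and 6.49% of rows had a ratio as high.

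Fosl1 and Fosl2 encode Fra-1 and Fra-2, Fos proteins that lack the strong activation domain of Fos and Fosb and that come up later and stay longer after a stimulus. Their direction was opposite to that of Fos and Fosb. Fosl1 had log2 ratios of -0.69, -0.34 and -0.18 on arrays 1, 2 and 3, all negative but spread over 0.513. Its mean of -0.40 ± 0.26 (SD, n = 3) just passed the test (limma, adjusted p = 0.0398). Whichever array was left out, Fosl1 lost the call (limma, adjusted p = 0.0582, 0.0870 and 0.0742 without arrays 1, 2 and 3), while its mean was -0.26, -0.43 and -0.52 in these fits.

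Fosl2 was the only member with more than 1 probe, and its probes differed. Probe 10837 gave -0.52, -0.67 and -0.52 on arrays 1, 2 and 3, with a mean of -0.57 ± 0.09 (SD, n = 3; limma over all probe rows, adjusted p = 0.00537). Probe 27237 gave -0.25, -0.47 and -0.24, with a mean of -0.32 ± 0.13 (adjusted p = 0.0361 by limma). Probe 15236 gave 0.06, -0.12 and -0.16 and did not pass (limma, adjusted p = 0.523). The last was thus close to 0 on every array while the first was clearly negative on every array. The sources used here do not say which part of the transcript each probe covers. Averaged over the 3 probes, Fosl2 was at -0.32 ± 0.10 (SD, n = 3; limma, adjusted p = 0.0266). That call was lost without array 2 or array 3 (limma, adjusted p = 0.140 and 0.148). Counted by probe, 10 of the 12 member probes passed, 4 higher and 6 lower, against 57.3% of all probe rows.

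Among the Jun proteins, Junb had the largest negative ratio of all members. Junb, which can restrain Jun and is itself induced quickly, had log2 ratios of -0.91, -1.61 and -1.08 on arrays 1, 2 and 3. It ranked last of the 10 on every array. The mean was -1.20 ± 0.36 (SD, n = 3), or 2.30-fold lower, with a 95% interval of -1.59 to -0.81 (limma, adjusted p = 0.00365). A ratio as low was found in 1.11% of rows.

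Jun, the partner of Fos in the classical AP-1 pair, had log2 ratios of -0.68, -0.60 and -0.40 on arrays 1, 2 and 3. All 3 were negative and lay closer together than those of Junb. Its mean was -0.56 ± 0.15 (SD, n = 3), or 1.47-fold lower (limma, adjusted p = 0.00697), and 10.6% of rows had a ratio as low. Fos and Jun, which form the pair, thus had ratios of opposite sign on each of the 3 arrays.

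Jund, the steadily expressed Jun protein, was the only one of its family to rise. Its log2 ratios were 0.81, 1.23 and 0.98 on arrays 1, 2 and 3. They overlapped with those of neither Jun nor Junb. The mean was 1.01 ± 0.21 (SD, n = 3), or 2.01-fold (limma, adjusted p = 0.00307), and 4.89% of rows had a ratio as high.

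Egr1, a zinc finger factor induced through serum response factor, had log2 ratios of 0.87, 1.18 and 0.93 on arrays 1, 2 and 3. Its mean was 0.99 ± 0.17 (SD, n = 3), or 1.99-fold (limma, adjusted p = 0.00307). It sat at a like place on each array, above 93.2%, 92.5% and 92.7% of rows. Egr2, its relative known from hindbrain and Schwann cell development, had -0.125, 0.24 and -0.14 on arrays 1, 2 and 3. Array 2 was positive and the others negative, with a mean of -0.01 ± 0.22 (SD, n = 3) and a 95% interval of -0.29 to 0.27 (limma, adjusted p = 0.960). That interval leaves room for a change of either sign, so no difference was detectable with 3 arrays. It lies wholly below the values of Egr1.

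Atf3, which is induced by many stresses and can act as a repressor, had log2 ratios of -0.755, -0.53 and -0.37 on arrays 1, 2 and 3. All were negative, with array 1 the lowest. Its mean was -0.55 ± 0.19 (SD, n = 3), or 1.47-fold lower (limma, adjusted p = 0.00986), and was close to that of Jun.

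Set in order, the members were Fos, Jund, Egr1, Fosb, Egr2, Fosl2, Fosl1, Atf3, Jun and Junb, from the highest mean ratio to the lowest. The first 4 could not be ordered among themselves. Their array values overlapped from neighbour to neighbour, and Fos ranked first of the 10 on arrays 1 and 2 while Jund did on array 3. Fosl2, Fosl1, Atf3 and Jun likewise overlapped from neighbour to neighbour. There were 3 places in the order where neighbours did not overlap. These were between Fosb and Egr2 (means 0.96 apart), between Egr2 and Fosl2 (0.31 apart) and between Jun and Junb (0.64 apart). The place of Fosl2 is that of its probe average. Its probe 15236 alone (0.06, -0.12 and -0.16 on arrays 1, 2 and 3) overlapped with Egr2. On array 1 the 4 highest members ran from 0.81 to 0.93 and the other 6 from -0.91 to -0.125. On array 2 these ranges were 1.01 to 1.68 and -1.61 to 0.24. On array 3 they were 0.93 to 0.98 and -1.08 to -0.14. The gap between Fosb and Egr2 was thus present on each array taken alone, while the order on either side of it varied. The order is a description, with no test between members, since each ratio rests on a different probe.

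**Figure D2:**
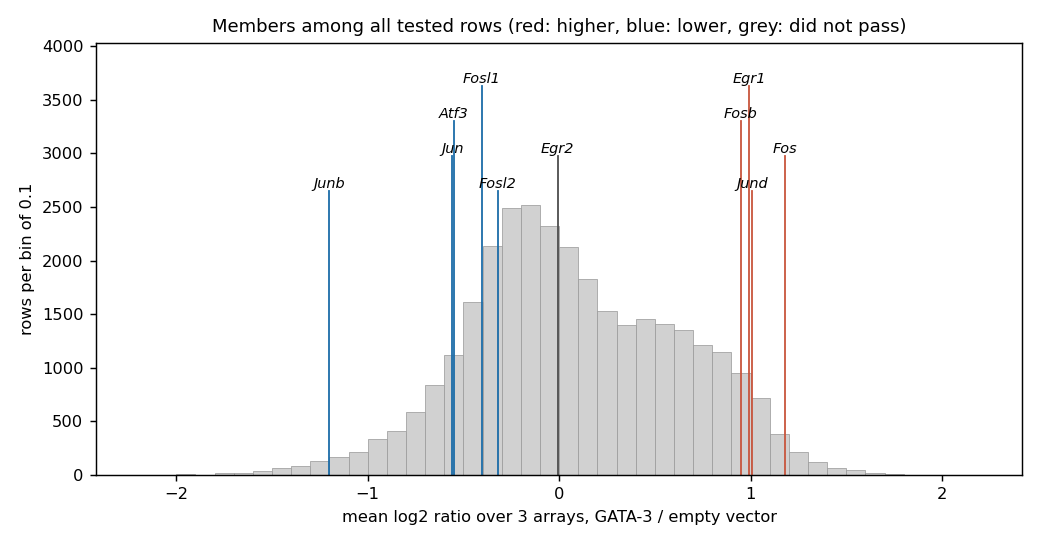
Number of rows (vertical axis) by mean log2 ratio over 3 arrays in bins of 0.1 (horizontal axis) for all 31059 tested rows, with a line at the mean of each member. Fos, Jund, Egr1 and Fosb sit on the right shoulder, where 1.69% to 6.49% of rows were as high, Junb sits in the left tail, and the other 5 lie between -0.56 and -0.01.

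The arrays did not carry these ratios evenly. In 7 of 10 members the value of largest size was on array 2, against 51.5% of all rows, and array 2 had the largest SD. The other 3, Fosl1, Jun and Atf3, were largest in size on array 1, and none was on array 3. In units of the SD of each array over all rows, Egr1 was at 1.61, 1.71 and 1.77 and Jund at 1.51, 1.77 and 1.86 on arrays 1, 2 and 3, so that the higher raw value on array 2 went with the wider scale of that array. Fos stayed highest on array 2 on this scale (1.72, 2.43 and 1.77). Atf3 had -1.41, -0.77 and -0.70 and Fosl1 -1.29, -0.49 and -0.34, so that both were furthest from 0 on array 1 and nearer to 0 on arrays 2 and 3, which share a title prefix. The mean over arrays 2 and 3 alone was 1.31 for Fos, 0.97 for Fosb, 1.10 for Jund, 1.06 for Egr1, -0.50 for Jun, -0.45 for Atf3 and -1.35 for Junb. For the other prefix only array 1 was at hand. All 3 arrays gave 1 sign in 9 of 10 members, against 76.4% of all rows.

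**Figure D3:**
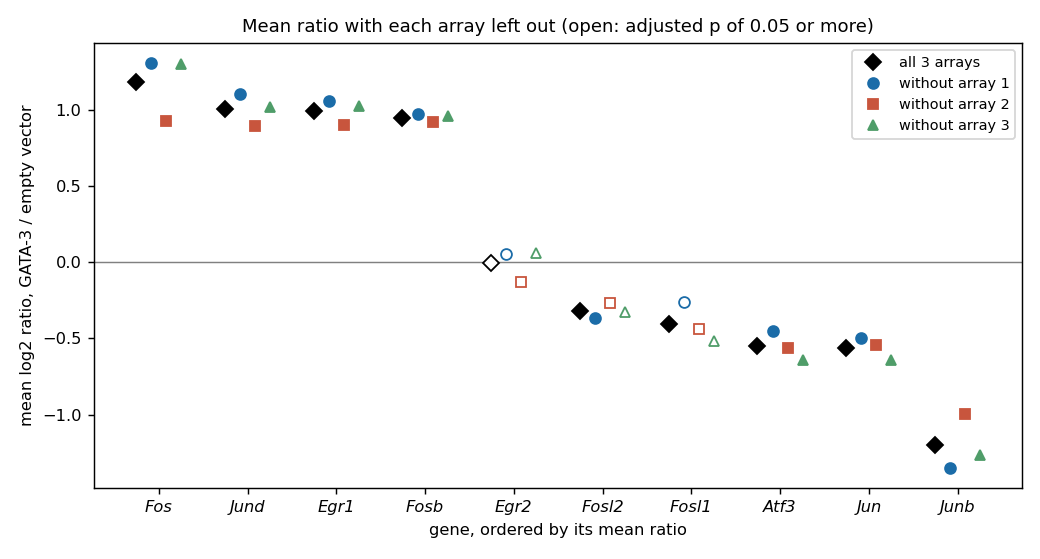
Mean log2 ratio (vertical axis) of each member (horizontal axis, ordered by mean) over all 3 arrays and with each array left out, with open symbols where the adjusted p was 0.05 or more. Fos, Jund, Egr1, Fosb, Atf3, Jun and Junb keep their sign and call, and Egr2 lies on both sides of 0. Fosl1 loses the call whichever array is left out, and Fosl2 loses it without array 2 or array 3.

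Promoter sequences show which sites of immediate early control lie close to the start of members that rose (Fos, Fosb), fell (Jun, Junb, Atf3) or did not pass (Egr2). The 150 bases before the RefSeq start are given, on GRCm38.p6, 5′ to 3′ along the gene's strand. Capitals mark the CArG box bound by serum response factor, the CREB core TGACG, and the GATA motif GATAA, each on either strand.
Fos, chr12:85473740-85473889, plus strand: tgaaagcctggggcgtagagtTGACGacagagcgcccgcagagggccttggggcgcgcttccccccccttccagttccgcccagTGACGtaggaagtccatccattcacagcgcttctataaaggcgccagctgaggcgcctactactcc
Fosb, chr7:19310046-19310195, minus strand: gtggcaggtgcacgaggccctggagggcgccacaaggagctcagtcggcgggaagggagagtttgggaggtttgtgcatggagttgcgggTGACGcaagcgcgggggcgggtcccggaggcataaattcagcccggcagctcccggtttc
Jun, chr4:95052223-95052372, minus strand: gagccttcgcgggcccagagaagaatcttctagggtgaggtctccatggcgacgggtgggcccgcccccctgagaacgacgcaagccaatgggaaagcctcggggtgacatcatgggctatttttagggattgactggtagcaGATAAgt
Junb, chr8:84978749-84978898, minus strand: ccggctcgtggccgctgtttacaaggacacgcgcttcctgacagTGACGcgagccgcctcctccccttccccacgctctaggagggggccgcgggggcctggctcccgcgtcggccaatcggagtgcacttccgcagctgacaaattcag
Atf3, chr1:191183334-191183483, minus strand: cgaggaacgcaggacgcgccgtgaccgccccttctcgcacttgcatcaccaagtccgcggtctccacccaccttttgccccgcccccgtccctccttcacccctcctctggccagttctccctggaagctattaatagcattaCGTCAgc
Egr2, chr10:67537719-67537868, plus strand: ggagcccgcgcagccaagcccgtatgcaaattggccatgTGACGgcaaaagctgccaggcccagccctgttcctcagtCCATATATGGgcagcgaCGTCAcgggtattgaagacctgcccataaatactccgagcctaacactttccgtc

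Windows of 8 of the 10 members were searched, and the 6 windows above are 1 for each member in which a motif was found. Egr2 had several starts, which differed, and the positions below are those of the printed window only. Its window at chr10:67535349-67535498 held none of the motifs. Its window at chr10:67537416-67537565 held a CArG box but no core TGACG. No window was given for Fosl1, and Egr1, a member that rose, was left out of the search. The motif results below therefore do not cover these members. In the 250 bases searched on both strands, the core TGACG was found at 66 to 62 and at 129 to 125 bases before the start of Fos, at 60 to 56 in Fosb, at 106 to 102 in Junb, at 7 to 3 in Atf3, and at 111 to 107 and 55 to 51 in Egr2. Of all 32851 windows of that length 17.8% held it. It was thus found in members that rose, that fell and that did not pass. The Egr2 window also held a CArG box, at 72 to 63 bases before the start, as did 1.47% of all windows. Whether the Egr1 promoter holds a CArG box was not searched. The motif GATAA was found in Jun, at 7 to 3 bases before the start, and in Atf3 above the printed stretch, at 194 to 190, against 22.6% of all windows. The TPA response element TGACTCA and the full CREB site TGACGTCA, which contains the core, were found in none of the member windows searched. They were in 4.46% and 1.55% of all windows. A match is a description of letters and not of binding, and no match says only that these letters are not in the window.

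The wider immediate early response was read from genes outside the 10, in lists written with earlier results of these data known. Of 27 measured genes of other immediate early type, 7 rose, 8 fell and 12 did not pass, with a median of -0.01. That share passing, 55.6%, was near the 57.9% of all named genes. The means in this list ran from -0.96 for Ccn2, named after its value was seen, to 1.51 for Klf10. Klf10, a Krüppel-like factor induced by TGF-beta, was at 1.51 ± 0.24, and Btg2, an antiproliferative early gene, at 1.26 ± 0.31. Plk3, a polo-like kinase, was at 0.86 ± 0.14, while Klf6, a Krüppel-like factor, was at -0.81 ± 0.17 (all SD, n = 3; limma, adjusted p from 0.00307 to 0.00348). Other well known early genes, named after their values were seen, did not pass: Myc was at 0.03 ± 0.10, Nr4a1 at 0.02 ± 0.36, Egr3 at -0.05 ± 0.09, Dusp1 at -0.28 ± 0.18 and Ier2 at -0.22 ± 0.13. Egr4, also named afterwards, rose at 0.51 ± 0.23. Within the Egr family, then, Egr1 and Egr4 passed and Egr2 and Egr3 did not, and the differences between them were not tested.

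Possible partners and corepressors were counted next. Of 17 measured genes, 5 rose, 6 fell and 6 did not pass, with a median of -0.15. The share passing was 64.7%, against 57.9% of named genes. Cebpb, a leucine zipper factor needed for mammary gland development, was at -1.44 ± 0.32, Batf3, a Jun partner of dendritic cells, at -0.93 ± 0.26 and Atf1, a CREB relative, at -0.70 ± 0.15. Mafk, a small Maf protein, was at 1.40 ± 0.51 (all SD, n = 3; limma, adjusted p from 0.00307 to 0.00472). Without array 1 the count was 6 higher and 8 lower, without array 2 it was 2 higher and 6 lower, and without array 3 it was 1 higher and 5 lower.

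Of 25 measured upstream kinases and ternary complex factors, 5 rose, 8 fell and 12 did not pass, with a median of 0.08. The share passing was 52.0%, against 57.9% of named genes. Map2k1, the ERK kinase MEK1, was at 0.91 ± 0.13 and Map2k4, a kinase of the JNK pathway, at 0.74 ± 0.26. Map2k5, the kinase of ERK5, was at -1.02 ± 0.42 (all SD, n = 3; limma, adjusted p from 0.00307 to 0.00681). Mapk9, which encodes the Jun kinase JNK2, was at -0.54 ± 0.17, but its 3 probes gave means of -0.10, -0.54 and -0.99. Map2k4 and Mapk9 lost the call without array 3 (limma, adjusted p = 0.0515 and 0.0620). The count of 13 passing was 17 without array 1, 8 without array 2 and 4 without array 3, where 63.6%, 36.7% and 27.4% of all rows passed. Srf, which encodes serum response factor, and Elk1, its ERK-regulated partner, both named after their values were seen, did not pass, at 0.09 ± 0.05 and 0.09 ± 0.03.

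Genes known as AP-1 or Egr targets passed in both directions. Of 20 measured, 10 rose, 8 fell and 2 did not pass, with a median of 0.16. The share passing was 90.0%, against 57.9% of named genes. The count was 15 without array 1, 11 without array 2 and 7 without array 3, while the share of all rows passing was 63.6%, 36.7% and 27.4% in these fits. Tissue factor (F3) was at 1.37 ± 0.46, interleukin 6 (Il6) at 0.95 ± 0.17 and urokinase (Plau) at 0.73 ± 0.10. Itgb1, the beta-1 integrin chain, was at -0.80 ± 0.05, its probes giving -0.70 and -0.91 (all SD, n = 3; limma, adjusted p from 0.00307 to 0.00407). Of the 5 matrix proteases in the list, named after their values were seen, Mmp3 (0.36 ± 0.07), Mmp9 (0.27 ± 0.07), Mmp13 (0.41 ± 0.07) and Mmp14 (0.27 ± 0.06) rose and Mmp10 (-0.42 ± 0.12) fell.

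**Figure D4:**
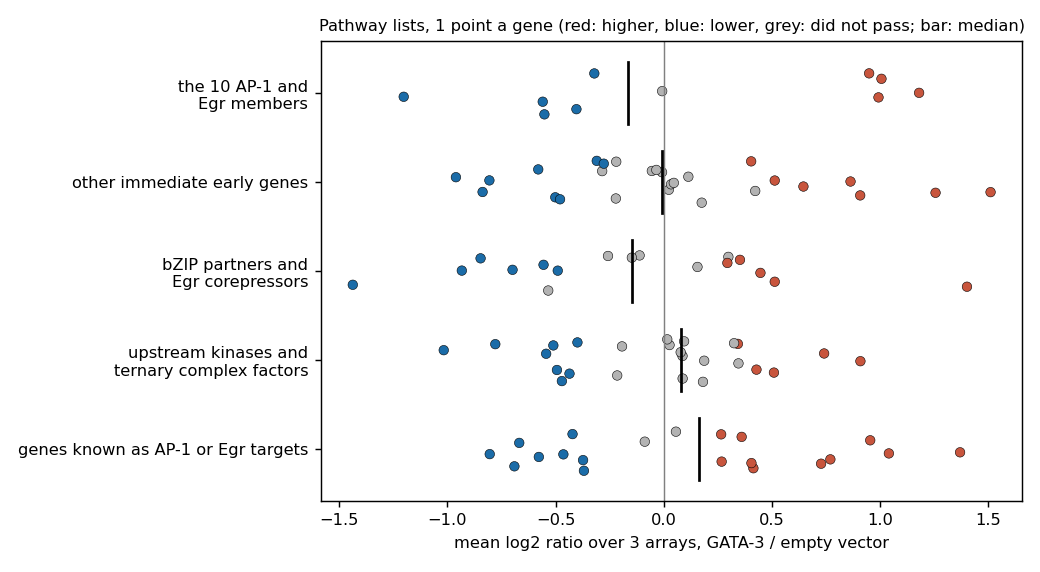
Mean log2 ratio over 3 arrays (horizontal axis) for the 10 members and for the genes of 4 pathway lists (rows), 1 point a gene, with a bar at the median. Every set holds genes on both sides of 0, and the medians lie between -0.16 and 0.16.

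Markers of the cell types a tumor can hold were read from the same arrays. Of 30 measured markers in 7 short lists, 12 rose and 8 fell, a share passing of 66.7% against 57.9% of named genes. Endothelial markers counted 3 higher and 0 lower of 4 and lymphocyte markers 3 and 0 of 4, with medians of 0.63 and 0.70. Fibroblast and matrix markers counted 0 and 3 of 5, with a median of -0.36. Adipocyte markers counted 2 and 0 of 5 (median -0.06) and skeletal muscle 1 and 2 of 4 (median -0.24). Macrophage and myeloid markers counted 1 and 1 of 3 (median 0.05), and mammary epithelial 2 and 2 of 5 (median -0.03). The part of these cell types in the members' ratios was not tested.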

How the data were processed

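The authors deposited 1 value per probe row and array (38976 rows, 3 arrays, 1 missing value), read here as a log2 ratio. The sources used here do not state the scanner, background correction, normalization, log base or direction. The columns had medians of -0.02, -0.07 and -0.07. Base 2 is an assumption that was not tested, and with another base the folds would differ in size. Probes were named from GEO's platform annotation: 22973 had 1 symbol, 0 several and 16003 none, and all 15056 symbols were found in RefSeq.

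The median of each array was set to 0, the probes of a gene were averaged, and probes with no symbol stayed as single rows. Rows with values on all 3 arrays (31059) were compared with 0 by limma 3.58.1 under R 4.3.3 (intercept only, eBayes, Benjamini-Hochberg over all rows, threshold 0.05). A second fit took each probe alone (38975). It compares a mean with the spread between arrays and takes no account of a probe effect that recurs on every array. The number of arrays limits the precision.

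The members and lists were chosen with earlier results of these data known. Named genes were the members, Gata3, and in each pathway list the 4 of smallest p among those that passed and had a single sign over the arrays; others are said to be named after their values were seen. Lists are given as counts and medians, with older symbols updated and members left out. Promoter windows are from RefSeq, GRCm38.p6. Alternatives covered centring, scaling, variance model, probe summary, missing values, thresholds and each array left out.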

Additional observations from a re-analysis of the deposited data

How the results depend on the processing

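Of the 10 members, 9 passed with the values as deposited, scaled arrays, a robust eBayes, the median of probes, a value on at least 2 arrays and an adjusted p under 0.10, each with 4 higher and 5 lower. With each probe on its own 8 passed. Leaving out 1 array at a time gave 7 to 8 member genes, 8 to 9 of the 12 member probes and 27 to 63 of the 89 pathway list genes (57 with all arrays; 27 without array 3). The share of all rows passing moved from 55.8% to 63.6%, 36.7% and 27.4% without arrays 1, 2 and 3. The list count (63, 38 and 27) moved beside it. The member gene count was 8, 7 and 7 in these fits. With 9 of 10 passing on all arrays, that count had little room to rise with the share, so setting it beside the share says little. With an absolute mean of at least 1 as well, 3 member genes (Fos, Jund and Junb), 3 member probes and 7 list genes passed. A plain one-sample test per row, which shares no variance between rows, left 0 member genes, 0 member probes and 0 list genes after adjustment, from 8, 8 and 47 at an unadjusted p under 0.05. Egr2, not called, ran from -0.13 to 0.0592 with an array left out, turning sign without array 1 (0.05) and without array 3. Gata3 kept its sign and call in every setting run except the plain test (0.74 to 0.83). No paired analysis was possible because each tumor pair was already combined in a ratio within a single group. Of the 10 members 9 rested on 1 probe, as did 53 of the 89 list genes, and brightness over background was not known for any of them.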
